A study of Arabidopsis thaliana with 4 samples.

Results

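The comparison set 2 mutants that lack regulators of anthocyanin genes, ttg1 and gl3 egl3, against gl1 and wild type, with 1 deposited column of expression values per genotype and all 4 of the 4 samples of the series in use. The arrays were assigned by genotype from their titles, and no measured value decided which array stood on which side. The comparison itself was chosen with earlier results of these data known. Each array profiled total RNA of Arabidopsis thaliana seedlings grown at 22 °C under 16 h of light and 8 h of darkness. The wild-type, ttg1 and gl3 egl3 labels give an age of 20 days, and the gl1 label gives none. The 3 mutants share the absence of leaf hairs (trichomes), so this property does not divide the sides: gl1 stands with wild type. No allele is named for gl1, ttg1, gl3 or egl3, the design text writes the double mutant with egl1 in place of egl3, and no agent or treatment is given. The descriptions of ttg1 and gl3 egl3 name the accession L.er (Landsberg erecta) for the wild type they are set against, whereas those of gl1 and wild type name no accession. Accession and regulator genotype therefore cannot be told apart. Use of green tissue alone is stated for gl1, ttg1 and wild type and not for gl3 egl3.

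TTG1 is a WD40-repeat protein, and GL3 and EGL3 are basic helix-loop-helix factors. They assemble with a MYB factor into complexes that switch on target genes. With GL1 as the MYB partner the complex specifies trichomes, and with other MYB partners it activates the late genes of anthocyanin synthesis, in which dihydroflavonols are reduced, oxidised, glycosylated and acylated to coloured pigments. GL1 is not required for the pigment branch. In the glucosinolate pathway, which makes sulfur-rich defence compounds of the cabbage order, AOP genes encode dioxygenases that modify the side chain, and their activity is known to vary between natural accessions. NLR genes encode intracellular immune receptors and are likewise known for variation between accessions.

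The sides were not 2 internally alike groups. Between ttg1 and gl3 egl3, 7.98% of the 12601 probe sets tested differed by at least 2-fold, against 3.95% between ttg1 and gl1 and 5.56% between ttg1 and wild type. The median absolute difference was 0.19 (log2) between ttg1 and gl1 and 0.31 between ttg1 and gl3 egl3. Wild type and gl1 were the closest by the 2-fold count, at 2.87%, and wild type and gl3 egl3 the most distant, at 14%. The gl3 egl3 array thus stood away from all 3 others, including its partner. Its lowest deposited value was 3.50, against 2.18 to 2.46 in the others. An actin control was highest there at the 3' end (11.88 against 11.21 to 11.35) and lowest at the 5' end (8.44 against 8.75 to 8.93). The matching GAPDH control was at 10.65 and 9.57 there, against 10.48 to 10.60 and 9.47 to 9.56. The part of array quality in this distance was not tested. The wild-type column had a deposited median of 5.93, below those of the mutants (6.33 to 6.40). The deposited SD was 2.01 in gl3 egl3 and 2.34 to 2.41 in the others. All deposited wild-type values lay on steps of 0.005 (to within 1e-06), which at most 0.0528% of the values of any other array did. The labels do not say whether this column is 1 array or a mean of several, and it is counted as 1 array here. No probe set is named here for TTG1, GL3, EGL3 or GL1, so the genotypes could not be checked against their own transcripts. Of the marker genes, RCA, the Rubisco activase gene of green tissue, lay between 12.19 and 12.30 on the 4 arrays, and SBPASE, a gene of the carbon fixation cycle, between 11.60 and 11.91 with the regulator mutants higher by 0.24. PYK10, a root-enriched glucosidase gene, lay between 10.91 and 11.34. EXPA7, a root hair expansin gene, was at 3.26 to 3.39 and EXPA18, another, at 4.27 and 3.89 in ttg1 and gl3 egl3 against 5.34 and 5.11 in wild type and gl1. Neither reached the level filter, and the part of tissue makeup in the comparison was not tested.

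**Figure D1:**
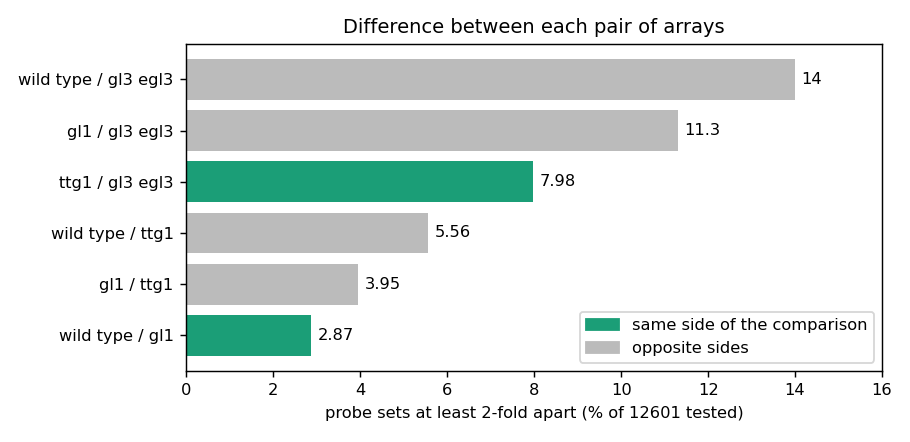
Bars give the percentage of the 12601 tested probe sets that differed by at least 2-fold between 2 arrays, green where both arrays belong to the same side and grey where they do not. The pair ttg1 and gl3 egl3 (7.98%) differed more than ttg1 did from gl1 (3.95%) or from wild type (5.56%).

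The probe sets that passed the test between the sides were mostly lower in ttg1 and gl3 egl3. In limma's moderated test, 48 probe sets were lower (0.381% of those tested) and 5 higher (0.0397%) at a Benjamini-Hochberg adjusted p under 0.05, 53 or 0.421% in all. At an unadjusted p under 0.05, 729 were lower (5.79%) and 443 higher (3.52%). The lower calls had a median size of 5.49-fold (3.41-fold to 12.4-fold), and the higher ones one of 8.14-fold (3.45-fold to 11.1-fold). In 26 of the 48, both regulator mutants fell under 6.26 (log2), the level that at least 1 array had to reach, so those values lie where arrays separate genes poorly. Of the 5 higher ones, 3 had both gl1 and wild type under that level. The error in this test is the spread between different genotypes of a side, with 2 arrays each. Without the wild-type array or without the gl1 array no call remained (577 and 932 probe sets with an unadjusted p under 0.05), and without ttg1 there were 349 lower and 358 higher; without gl3 egl3 there were 44 and 5.

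**Figure D2:**
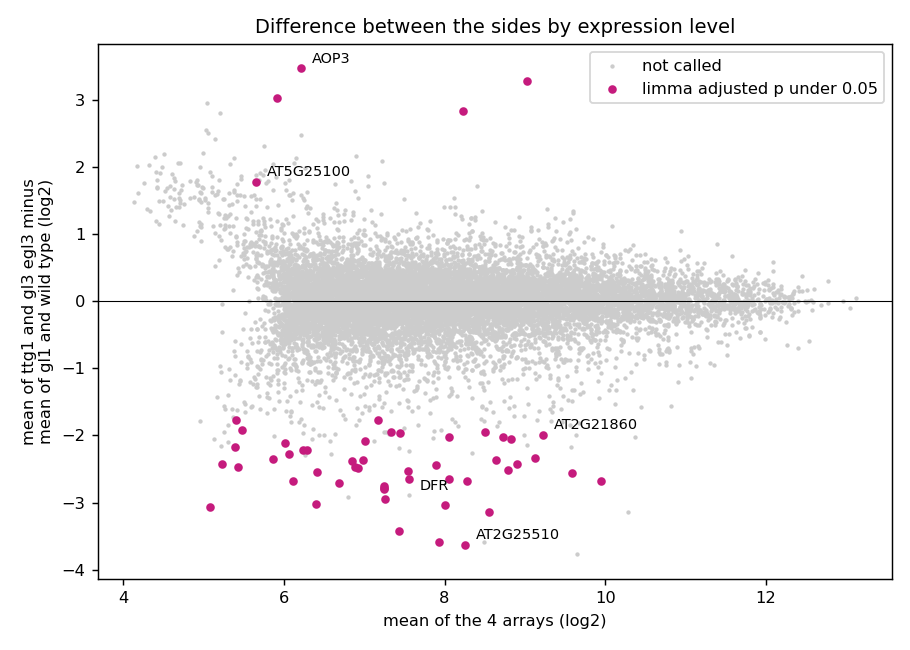
Each point is a tested probe set, placed by its mean over the 4 arrays (log2) and by the mean of ttg1 and gl3 egl3 minus that of gl1 and wild type (log2), with the 53 called by limma in pink. Of these, 48 lie below 0 and 5 above; DFR, at -2.89, is not among them.

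The split by direction depended on how far apart the sides had to be. Counting probe sets whose 2 values on one side both lay beyond both values on the other, with no minimum gap, 2250 were lower (17.9%) and 2881 higher (22.9%) in the regulator mutants, together 40.7%. With a gap of at least 1 (log2), which is 2-fold, 186 were lower (1.48%) and 42 higher (0.333%). With a gap of at least 2, the counts were 38 and 4. At gaps of 1 and 2 the lower probe sets outnumbered the higher ones under all 4 scalings run. With no minimum gap the split depended on the scaling: 43.9% of the separated probe sets were lower after quantile normalization, 34.0% as deposited, 48.2% after cyclic loess and 58.2% with medians subtracted. In the deposited values, whose median difference over the same probe sets was 0.12, 67.6% of the probe sets with a 2-fold gap were lower, against 81.6% after quantile normalization. These counts carry no test.

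**Figure D3:**
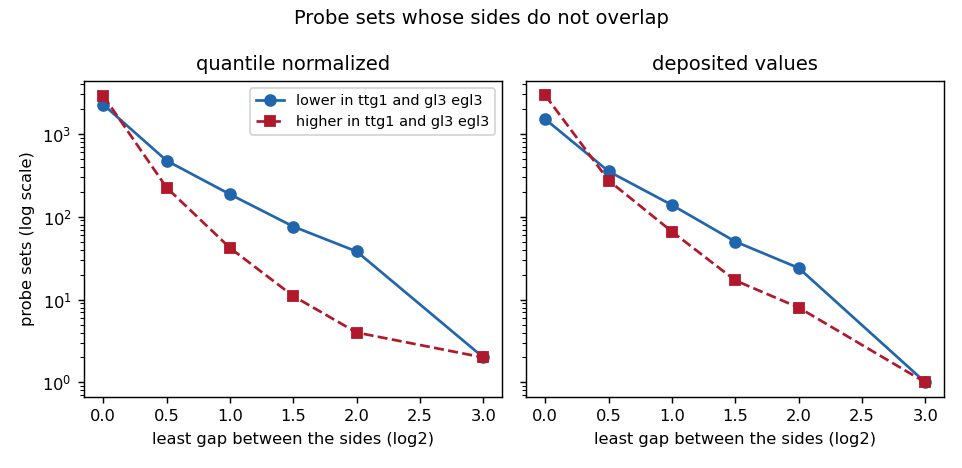
Number of probe sets (log scale) whose sides do not overlap, by the least gap between them (log2), for values lower (blue) or higher (red) in ttg1 and gl3 egl3, after quantile normalization (left) and as deposited (right). At a gap of 1 the left panel holds 186 lower and 42 higher probe sets, and the right panel 138 and 66.

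Late anthocyanin genes were lower in both regulator mutants in 3 of the 4 members tested, where 17.9% of all tested probe sets were lower without overlap. None of the 4 passed the test over all probe sets. This list, like the others, was drawn up with earlier results of these data known, so its count is not independent of them. Of 12 genes listed, 5 are named here, and AT5MAT, an anthocyanin malonyltransferase gene, stayed under the level filter at 5.71 to 6.22. DFR, which encodes dihydroflavonol reductase at the entry to the late branch, was at 5.54 in ttg1 and 6.68 in gl3 egl3, against 8.35 in wild type and 9.66 in gl1. The sides were apart by 1.67, with gl1 the highest array and ttg1 the lowest. The difference of -2.89 ± 0.54 (SE) had an adjusted p of 0.124 in limma, and ranged from 0.0141 to 0.405 over 11 alternatives, of which 3 were under 0.05.

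AT4G14090, placed in this list by its locus, was at 6.11 in ttg1 and 6.54 in gl3 egl3, against 8.05 in wild type and 8.55 in gl1. Both regulator mutants again lay under both other arrays, by at least 1.51. The difference was -1.98 ± 0.29 (SE), 3.94-fold, with a limma adjusted p of 0.0679, and 6 of 11 alternatives gave an adjusted p under 0.05 (0.0203 to 0.369). UF3GT, the anthocyanin glycosyltransferase gene also called UGT79B1, was at 6.83 in ttg1 and 6.71 in gl3 egl3, against 7.90 in wild type and 8.15 in gl1. It showed the smallest separation of the 3, at 1.07, and its difference of -1.25 ± 0.23 (SE) had a limma adjusted p of 0.112 (0.0454 to 0.536 over 11 alternatives, 1 under 0.05). UGT78D2, a flavonoid 3-O-glucosyltransferase gene that serves flavonols as well as anthocyanins, was at 7.98 in ttg1, 8.34 in gl3 egl3, 8.14 in wild type and 8.76 in gl1, and its sides overlapped. In all 4 tested genes gl1 was above wild type. The median difference of the 4 was -1.62, against 0.03 over all tested probe sets, and between -1.81 and -1.43 without each array in turn.

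Early flavonoid and flavonol genes had smaller differences than DFR, AT4G14090 and UF3GT. UGT78D2 of the late list, at -0.29, differed less than CHIL (-0.81) and AT1G06000 (-0.78) of the early list. The lists were not tested against each other. Among 12 early flavonoid and flavonol genes, 4 are named and 3 were tested, with 0 called and 2 lower without overlap (17.9% of all tested probe sets). CHIL, a chalcone isomerase-like gene whose product aids flavonoid entry, was at 7.92 in wild type, 8.25 in gl1 and 7.27 in each regulator mutant. Its difference was -0.81 ± 0.23 (SE, limma adjusted p = 0.337), or 1.75-fold. AT1G06000, listed by locus, was at 8.27 and 7.72 in wild type and gl1 and at 6.90 and 7.54 in ttg1 and gl3 egl3. UGT78D1, a flavonol rhamnosyltransferase gene, lay between 9.87 and 10.06 on the 4 arrays, so the flavonol arm had a member with overlapping sides beside the lower ones. The list's median was -0.78. ALDH2C4, an aldehyde dehydrogenase gene of sinapate synthesis, was the 1 tested of 14 phenylpropanoid and sinapate genes, at 9.62 in gl3 egl3 and 10.16 to 10.39 elsewhere.

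**Figure D4:**
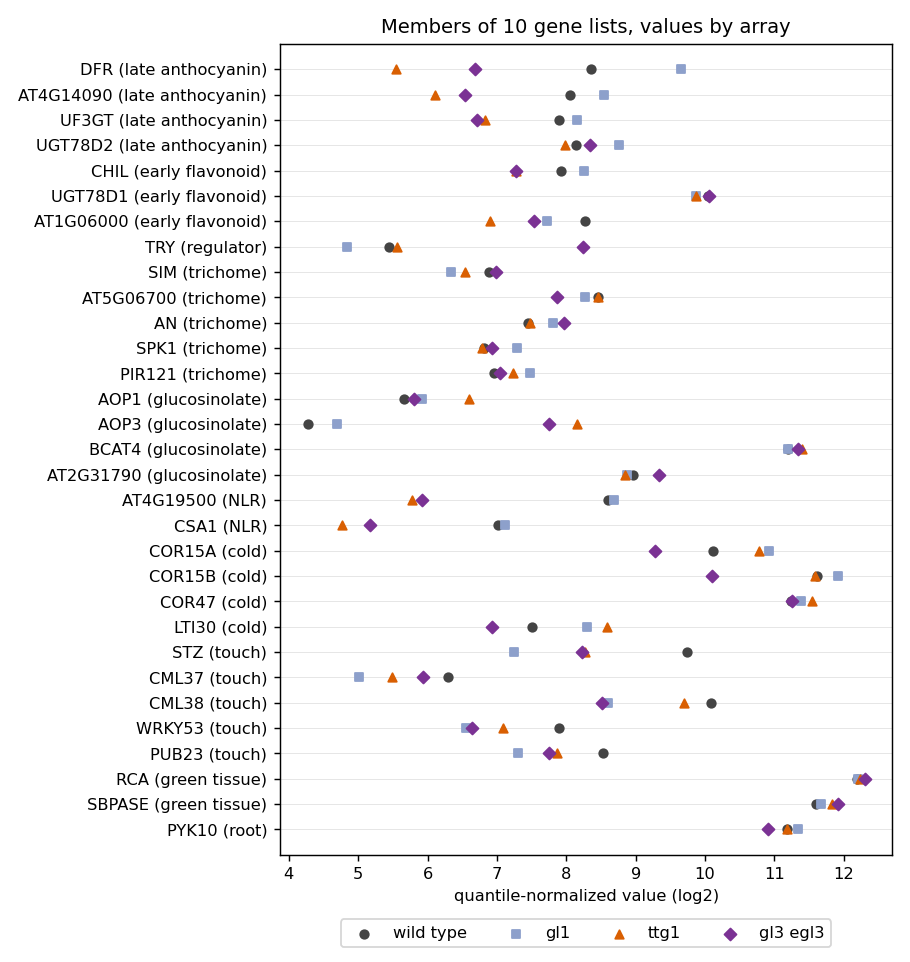
Quantile-normalized values (log2) of the tested members of 10 gene lists, 1 symbol per array. DFR, AT4G14090 and UF3GT have ttg1 and gl3 egl3 left of gl1 and wild type, AOP3 has them to the right, and the 5 touch genes have wild type as the highest array.

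None of the regulator and trichome genes tested passed the test. Of 24 genes of the MYB, helix-loop-helix and WD40 complexes and their inhibitors, ATMYC1 and TRY are named. ATMYC1, a helix-loop-helix gene related to GL3, was at 5.14 to 5.83 and under the level filter. TRY, a small MYB protein that blocks trichome formation in neighbouring cells, was at 5.56 in ttg1, close to wild type (5.44) and gl1 (4.84), and at 8.24 in the double mutant. Its sides were apart by 0.12. Its difference of 1.76 ± 0.82 (SE, limma adjusted p = 0.602) was set mainly by the double mutant. Of the 19 trichome genes, 7 are named and 6 tested, with a median of 0.01. Apart from TRY, the tested ones (SIM, AN, SPK1, PIR121 and AT5G06700) had differences from -0.20 to 0.15, and the sides overlapped in all 5. BAN, the anthocyanidin reductase gene of seed coat tannin synthesis, was at 3.19 to 3.45 and not tested.

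The genes that passed the test were mostly outside these pathways. AOP3 had the largest upward difference, at 4.27 in wild type and 4.69 in gl1 against 8.15 in ttg1 and 7.75 in gl3 egl3. Both reference values were under the level filter and both mutant values well above it, so AOP3 was tested because the mutants were high. With a level filter on the mean of the 4 arrays AOP3 was not tested. The difference was 3.47 ± 0.27 (SE, limma adjusted p = 0.0251), and 7 of 10 alternatives kept it under 0.05 (0.000547 to 0.219). The other aliphatic glucosinolate genes tested had differences of 0.16 to 0.41 and did not pass the test. Of 25 listed, 4 are named and tested, and AOP3 is the 1 called, where 0.0397% of all tested probe sets were called higher. AOP1, a dioxygenase gene of the same family, was at 6.59 in ttg1 and 5.66 to 5.92 elsewhere. BCAT4, the methionine aminotransferase gene at the entry to the pathway, lay between 11.20 and 11.40, and AT2G31790 between 8.84 and 9.33. UGT74B1, a glucosyltransferase gene of the glucosinolate core, was at 9.23 to 9.53.

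Of 28 NLR genes listed, 4 are named, 2 passed the level filter and both of these were called lower. Of all tested probe sets, 0.381% were called lower. The 2 NLR genes passed the filter through gl1 and wild type alone. The list was drawn up with earlier results of these data known, so its count is not independent of these data. AT4G19500 was at 5.77 in ttg1 and 5.92 in gl3 egl3, against 8.60 in wild type and 8.69 in gl1, which is 6.93-fold lower (limma adjusted p = 0.0251, and 8 of 11 alternatives under 0.05, from 0.00166 to 0.219). CSA1, an NLR gene first described for constitutive shade avoidance, was at 4.76 and 5.17 against 7.02 and 7.12 in the same order, 4.30-fold lower. With a level filter on the mean of the arrays CSA1 was not tested. Its limma adjusted p of 0.0388 was the less stable: 4 of 10 alternatives were under 0.05 (0.0127 to 0.278). The neighbour of AT4G19500, AT4G19510, was under the level filter, at 5.15 and 5.53 in wild type and gl1 and 4.24 and 4.40 in ttg1 and gl3 egl3. AT1G31540, the remaining one, was at 3.87 to 4.10.

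Among the called probe sets, 38 name 1 gene, 36 lower and 2 higher, which is 0.559% of the 6798 tested ones that do. The 30 lower genes with the smallest p ranged from 3.88-fold to 12.4-fold (limma adjusted p = 0.0251 to 0.0388), with gaps between the sides of 1.78 to 3.10. AT2G25510 differed most, at 6.81 in ttg1 and 6.06 in gl3 egl3, against 9.91 in wild type and 10.22 in gl1. AT1G66100 was at 5.67 and 5.78 against 8.68 and 9.61, and AT5G49440 at 6.68 and 6.27 against 9.53 and 9.51, in that order. In each of these 3 the lower of the reference values exceeded the higher of the mutant values by at least 2.83 (log2).

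A few of the called genes carry a gene name, which for AT3G58730 is not its symbol in the reference. LUL1, a ubiquitin ligase gene related to LOG2, was at 5.32 in ttg1 and 5.34 in gl3 egl3, against 7.97 in wild type and 8.11 in gl1. AT3G58730, which is annotated as VHA-D, a subunit of the vacuolar proton pump, was at 7.24 and 6.64 against 9.73 and 9.51. CLE44, whose peptide signals in the vascular cambium, was at 5.64 and 5.97 against 8.35 and 8.01. HVA22C, a homologue of an abscisic acid-induced gene of barley, was at 6.50 and 6.44 against 8.40 and 8.46. ZW9 was at 5.97 and 5.34 against 8.17 and 8.08. All 5 had non-overlapping sides at a limma adjusted p from 0.0251 to 0.0349, and fell 3.88-fold to 6.52-fold.

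Of the 30 lower genes, 3 are pseudogenes in the reference annotation. Among the 63 probe sets tested that name a pseudogene, 4.76% were called (3 lower, 0 higher), against 0.522% of those that name a protein-coding gene. The median difference of the 63 was nevertheless upward, at 0.85, against 0.02 for protein-coding genes. AT4G08110 and AT5G14840 passed the level filter through gl1 and wild type alone. AT1G35612 was at 9.90 and 10.20 in wild type and gl1 against 7.55 and 7.52 in ttg1 and gl3 egl3, AT4G08110 at 6.91 and 7.18 against 4.59 and 4.81, and AT5G14840 at 6.52 and 6.72 against 3.86 and 3.25. The remaining 19 (AT2G13660, AT3G16750, AT1G69550, AT2G01090, AT2G22425, AT1G12400, AT4G02540, AT5G43440, AT1G29070, AT1G59970, AT2G04380, AT4G01130, AT3G44430, AT3G28940, AT1G24530, AT3G01740 and AT2G21860, with AT4G19500 and CSA1 given above) fell 3.97-fold to 7.73-fold. In 19 of the 30, gl1 was above wild type, and in 13 ttg1 was below gl3 egl3. AT2G33220 had one of the widest gaps, 2.63, but its limma adjusted p was 0.0539: it was at 7.35 and 6.03 against 9.98 and 10.58, with 1.32 between the 2 regulator mutants.

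**Figure D5:**
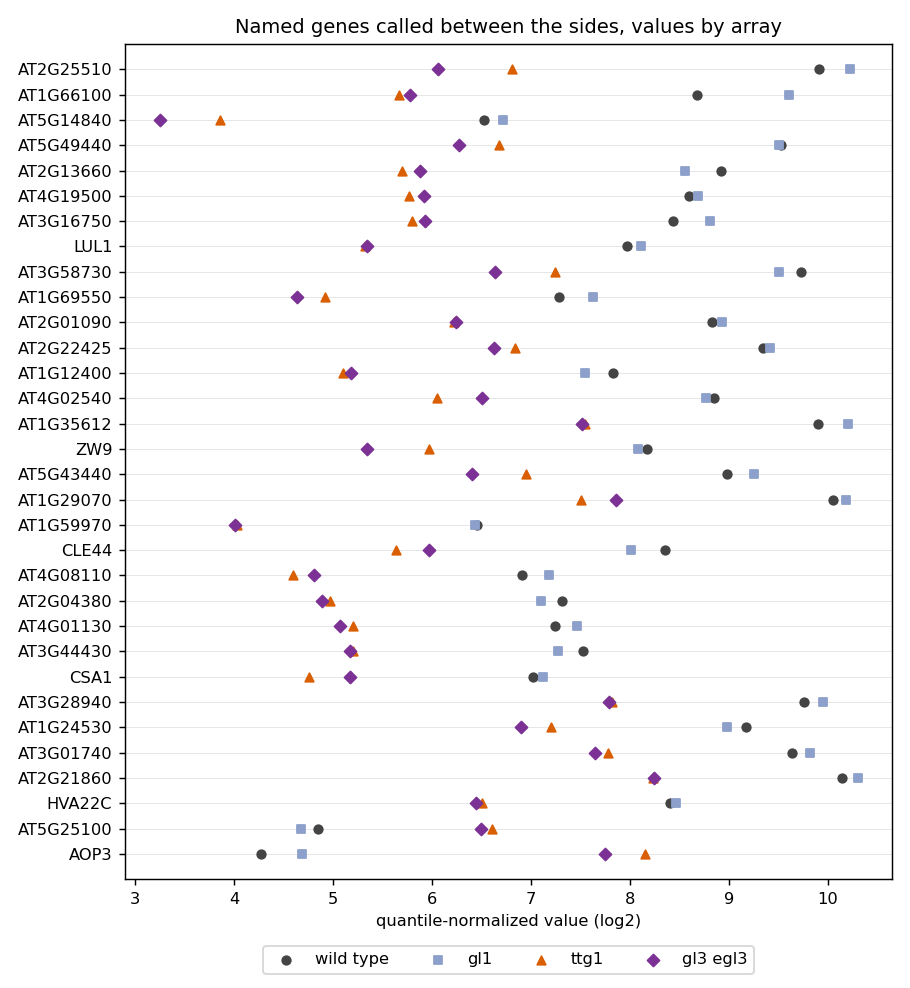
Quantile-normalized values (log2) of the 32 named genes called between the sides, 1 symbol per array, ordered by the difference. In 30 genes ttg1 and gl3 egl3 lie left of gl1 and wild type, and in AT5G25100 and AOP3 they lie right.

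The second named higher call was AT5G25100, at 6.61 in ttg1 and 6.49 in gl3 egl3, against 4.85 in wild type and 4.68 in gl1 (limma adjusted p = 0.0472, and 4 of 10 alternatives under 0.05, from 0.00523 to 0.313). The gl1 and wild-type values of AT5G25100 were under the level filter, so it too was tested because the regulator mutants were high. With a level filter on the mean of the 4 arrays it was not tested. A further 8 genes completed the 10 with the widest upward gap, and none of them passed the test. GSTU23, a tau-class glutathione transferase gene, was at 5.91 in ttg1 and 6.81 in gl3 egl3, against 4.41 in wild type and 4.21 in gl1 (limma adjusted p = 0.092). JRG21, a jasmonate-regulated gene, was at 7.38 and 7.65 against 5.98 and 5.56 (limma adjusted p = 0.068). AT2G29170, AT5G15360, AT5G26970, AT5G02230, AT2G18210 and AT2G04980 had differences of 1.59 to 2.56 and limma adjusted p from 0.0539 to 0.21. AT2G04980 is a pseudogene measured by a probe set of the kind that can match several transcripts, so its source is uncertain. In all 8 the gl1 and wild-type values were under the level filter, so these genes were tested because a regulator mutant was high.

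Of the 15 called probe sets with no single gene name here, 12 were lower and 3 higher. Chosen after the values were seen, 263174_at was at 10.64 in ttg1 and 10.69 in gl3 egl3, against 7.19 in wild type and 7.58 in gl1. The probe set 245218_s_at was at 9.73 in both reference arrays, 5.80 in ttg1 and 6.49 in gl3 egl3. Both passed the test (limma adjusted p = 0.0251 each).

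Calls were spread over the nuclear chromosomes. Per chromosome, 0.503% to 0.717% of tested named probe sets were called, the highest on chromosome 4 (7 of 976) and the lowest on chromosome 5 (8 of 1590), and 0 of 68 chloroplast-encoded ones were. A named probe set existed for 34 immediate neighbours of called genes, of which 12 were tested and 0 called by limma (0.421% of all tested were). Of the 34, 10 lay apart in the direction of the called gene, where 17.9% of all tested probe sets were lower and 22.9% higher without overlap. Of these 10, 2 were tested and 8 were under the level filter, so those shares do not cover the 8. The median difference of the 34 was -0.06. AT1G59960, next to AT1G59970, was the 1 neighbour at least 2-fold apart in the same direction, where 1.48% of all tested probe sets were that far apart downward. It was at 6.49 in ttg1 and 6.20 in gl3 egl3, against 7.79 in wild type and 7.99 in gl1, while AT1G59970 was at 4.03 and 4.01 against 6.45 and 6.43. Among the 3151 probe sets with the lowest mean levels (4.14 to 6.87) 0.603% were called, and among the 3150 with the highest (9.05 to 13.1) 0.127%.

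Enzyme families that include anthocyanin-decorating or defence-related members were counted after the data were seen, and none held a call. Families were picked by gene symbol. UGT genes under other symbols, such as AT4G14090 (UGT75C1), UF3GT (UGT79B1), AT1G06000 (UGT89C1) and AT2G31790 (UGT74C1), were therefore not counted. Of 25 glycosyltransferase genes with a UGT symbol tested, 5 were lower and 3 higher without overlap, where 17.9% and 22.9% of all tested probe sets were. These shares are near the background, but AT4G14090, UF3GT and AT1G06000, left out of them, were also lower without overlap. Among the 25, UGT85A4 was lowest relative to the reference side, at 6.38 in ttg1 and 6.98 in gl3 egl3, against 8.32 in wild type and 8.08 in gl1 (limma adjusted p = 0.121). AT4G14090 differed more, by -1.98 against -1.52 for UGT85A4. The UGT median was -0.18, but 0.05 in the deposited values, 0.10 without wild type and 0.02 without gl3 egl3. Of 13 SCPL serine carboxypeptidase-like genes, 5 were lower and 3 higher, again against 17.9% and 22.9% of all, and their median of -0.23 was -0.10 without gl1, -0.13 without gl3 egl3 and -0.12 as deposited. Among 8 BGLU glucosidase genes, BGLU46 was at 5.85 and 6.0 in wild type and gl1 against 6.95 and 6.92 in ttg1 and gl3 egl3, and BGLU42 at 9.15 and 9.36 against 8.64 and 8.04 (limma adjusted p = 0.168 and 0.383). The 9 cytochrome P450 (CYP) genes counted all belong to the CYP71B subfamily, so they do not stand for the P450 genes in general. They had 5 higher and 0 lower without overlap, with differences up to 0.62. Their median of 0.21 was 0.09 after each array's median was subtracted.

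Chloroplast-encoded genes had a positive median difference that rested on the gl3 egl3 array. Of 68 tested, 30 were higher without overlap (22.9% of all tested probe sets were) and 0 lower, and limma called none. The median difference was 0.34 with all arrays and 0.01 without gl3 egl3. The gl3 egl3 array was above both gl1 and wild type in 61 of the 68, and ttg1 in 30. The rbcL gene of the large Rubisco subunit was at 9.62 in ttg1 and 10.92 in gl3 egl3, against 8.75 in wild type and 9.11 in gl1. The petD gene of the cytochrome bf complex was at 7.89 and 9.88 against 7.42 and 7.29. In both genes ttg1 lay nearer to gl1 than to gl3 egl3.

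None of the tested genes on the touch, cold and drought, clock, guard cell, or jasmonate and salicylate lists passed the test between the sides. Genes outside these lists are not covered by this. The 5 rapid touch and wound genes tested, STZ, CML37, CML38, WRKY53 and PUB23, all had overlapping sides, with wild type highest and differences from -0.37 to 0.05. STZ, a zinc-finger repressor gene, was at 8.27 in ttg1 and 8.22 in gl3 egl3, against 9.74 in wild type and 7.24 in gl1. Of the 4 cold and drought genes tested, COR15B was lower without overlap, by 0.03, at 11.58 and 10.10 against 11.61 and 11.91. The clock gene GI was at 6.47 in gl1 and 6.58 in ttg1 against 5.38 in wild type and 5.30 in gl3 egl3, crossing the sides. FMA, the guard cell factor FAMA, was at 6.58 and 6.77 against 7.46 and 6.87 (limma adjusted p = 0.678), and SPCH and MUTE, earlier factors of the stomatal lineage, were under the level filter at 3.73 to 5.04. THI2.1, a thionin gene, was at 4.58 and 5.39 against 3.83 and 3.71, apart by 0.76 but under the filter. CLV3, a shoot apex peptide gene, and FD, a flowering factor gene, were at 3.06 to 3.81. In such bulk tissue, fewer cells of a type and less RNA per cell cannot be told apart.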

How the data were processed

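One log2 value per probe set was deposited for each of the 4 arrays. The submitters' processing notes name RMA, without version or settings. Per the labels' protocols, cDNA was amplified from 25 ng of total RNA before labelling. Of 22810 probe sets, 64 controls were left out. The other 22746 were quantile normalized in limma (version 3.58.1, R 4.3.3) across all arrays, and the 12601 whose highest value reached the median of all values (6.26) were tested. The mean of ttg1 and gl3 egl3 minus that of gl1 and wild type was tested with lmFit and eBayes (2 residual and 3.98 prior degrees of freedom), with Benjamini-Hochberg adjustment over all probe sets tested at 0.05. The labels mention no separate plantings or cultures, so a p-value here reflects only the spread between these arrays, whose number limits the precision.

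Gene names were taken from the platform annotation and brought up to date by Entrez number with RefSeq TAIR10.1. By these, 13513 probe sets name 1 gene (13436 matched), 503 several and 8730 none here. Where several probe sets name a gene, the one with the highest mean was used. The text names called genes (up to 30 per direction by p), the 10 per direction with the widest gap between the sides, and members of 18 lists (285 entries, 51 genes named, 36 tested). The comparison and the lists were chosen with earlier results of these data known, and the enzyme families after the data were seen. One trichome entry with a wrong locus was removed from its list after the files were read. The script was tested on simulated data. Other scalings, level filters, an intensity trend and each array left out were tried as alternatives.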

Additional observations from a re-analysis of the deposited data

Results flagged for a closer look

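PDF1.2, a jasmonate-responsive defensin gene, stood out because ttg1 and gl3 egl3 lay on opposite sides of both other arrays: it was at 6.0 in ttg1 and 9.84 in gl3 egl3, 3.84 (log2) apart, with wild type at 7.05 and gl1 at 7.62. The difference between the 2 mutants was not tested, since each has 1 array.

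Among the control probe sets, which the comparison leaves out, that for 5S rRNA was higher in ttg1 and gl3 egl3 by 1.61 (log2) after each array's median was subtracted. It was then at 1.97 in ttg1 and 3.19 in gl3 egl3, against 0.38 in wild type and 1.57 in gl1, so the sides were 0.40 apart. The 25S rRNA control differed by -0.48 on the same scale. Some other controls were also apart between the sides, such as BioB-5 (0.52, apart by 0.20), BioC-3 (0.47, apart by 0.25) and Ubq_5 (-0.45, apart by 0.20). In others, such as CreX-3 (0.04), the sides overlapped. The part of these controls in the comparison was not tested.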

How the results depend on the processing

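The calls (48 lower, 5 higher) numbered 89 and 47 as deposited, 91 and 13 after cyclic loess, 119 and 18 with medians subtracted, 100 and 7 with an intensity trend, 67 and 3 with the filter on the mean, 37 and 5 with the lower filter, and 0 and 0 with no filter (smallest limma adjusted p 0.0704, with 1892 probe sets at an unadjusted p under 0.05). Of the 53 calls, 50, 51, 52, 45, 39, 41 and 0 were shared with these settings in that order. Leaving out each array gave 0 to 349 lower and 0 to 358 higher, the lone array being assumed to vary like the others. Requiring a difference of at least 1 removed no call. The median difference over all probe sets tested was 0.131 as deposited and 0.032 after quantile normalization. Probe sets with sides at least 2-fold apart (186 lower, 42 higher) were recounted under alternatives chosen after seeing the data. As deposited, 138 were lower and 66 higher. Without each array, 254 to 526 were lower and 58 to 506 higher, a count that can only rise when an array is left out. The split was nearly even without ttg1 (526 lower, 506 higher), and 254 lower against 58 higher without gl3 egl3. The late anthocyanin median stayed within -1.81 to -1.43 under the alternatives run.

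Some uncalled genes changed sign when arrays were left out in turn. The ranges were -1.33 to 2.51 for PDF1.2, -1.49 to 1.0 for STZ, -0.97 to 0.51 for CML38, -0.60 to 0.70 for CML37, -1.04 to 0.31 for WRKY53, -0.72 to 0.50 for PUB23, -0.97 to 0.69 for LTI30, -1.24 to 0.26 for COR15A, -0.05 to 0.23 for COR47, -0.62 to 0.66 for GI, -0.13 to 0.43 for SIM, -0.16 to 0.34 for AN, -0.43 to 0.05 for SPK1, -0.33 to 0.18 for PIR121, -0.49 to 0.10 for AT5G06700, -0.08 to 0.41 for AT2G31790, -0.10 to 0.20 for UGT74B1, -0.08 to 0.11 for UGT78D1 and -0.60 to 0.02 for UGT78D2. With medians subtracted, UGT78D1 became -0.14, UGT74B1 -0.09, COR47 -0.02 and AN -0.01. UGT78D1 was -0.04 after cyclic loess, and PIR121 was 0.05 as deposited. The cause was not tested. Of the enzyme families, the members with the lowest and highest difference were carried through these alternatives, a restriction made after sign changes in the other members had been seen. No paired analysis was possible because each genotype has 1 array and the labels give no replicate numbers.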
